A study of Mus musculus with 42 samples.

Results

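Mitosis genes in the mouse colon crypt are described here through 52 genes whose products build, move and separate chromosomes: kinetochore and condensin subunits, mitotic kinesins and spindle proteins, checkpoint and anaphase genes, cyclins and kinases, and cytokinesis genes. They were taken by gene symbol from 20462 genes listed over 9 tables of bulk RNA-Seq of 42 libraries, and all 52 were found in every table and passed the filter of a mean normalized count of at least 10 in each. The study compared wild-type (WT) mice with mice lacking Mtg16 (Mtg16-/-, a transcriptional corepressor gene also named Cbfa2t3) and with mice homozygous for the P209T substitution in MTG16 (T/T). Both mutants were on the C57/BL6 background, were bred from heterozygous parents in separate colonies, and were matched to WT littermates of the same colony, so WT libraries belong either to the T/T colony or to the Mtg16-null colony. Mice were used from 8 weeks of age. Crypts came from the distal 5 cm of colon at baseline (3 WT and 4 T/T libraries in one colony, 4 WT and 4 Mtg16-/- in the other) or after 2% dextran sulfate sodium (DSS, which injures the colon epithelium) in drinking water for 5 days and then water for 4 days of repair (3 WT and 3 T/T, 3 WT and 4 Mtg16-/-), and from the proximal 5 cm at baseline (2 libraries in each of the 4 genotype and colony groups). Distal tumors (3 WT and 3 T/T) were induced by 10 mg/kg azoxymethane (AOM, a carcinogen) followed by 3 cycles of 4 days of 3% DSS and 16 days of water. The deletion and the substitution are carried by all cells of the mouse, and each tissue was a mixed isolate, so fewer cells of a type and less RNA per cell cannot be told apart.

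Mitosis follows DNA replication and divides the copied chromosomes between daughter cells. Condensin packs the chromosomes, kinetochores built on centromeres bind spindle microtubules, and a checkpoint holds the cell until all kinetochores are attached; the anaphase-promoting complex then releases separase, the sister chromatids part, and cytokinesis separates the daughter cells. In the colon these genes are transcribed mainly in the transit-amplifying and stem cells of the lower crypt, which renew the epithelium and repair it after injury, and many of them are switched on together late in the cycle through promoter elements bound by NF-Y, MuvB-B-MYB and FOXM1.

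Recovered read totals were between 32231389 and 74661922 for the 38 libraries whose whole reads were recovered, so counting error was small beside the spread between libraries. The targeted gene was read at 427 to 595 normalized counts in the 4 Mtg16-/- libraries after DSS and at 1850 to 2520 in the 3 WT libraries, without overlap, whereas at baseline in distal crypts the ranges overlapped (424 to 1090 and 1030 to 1810, rounded to 3 significant digits). The 7 epithelial markers, checked against the label of crypt, were all above 0 and summed to 731553 to 817542 normalized counts in WT baseline libraries of the T/T colony and to 872843 to 1237248 after DSS. Library names carry a number as prefix, whose meaning is not stated. Every library after DSS had another prefix than the baseline libraries it was compared with, so DSS and prefix cannot be told apart. Some libraries stood apart. The median log2 level of genes below 42% G and C bases (GC content) minus that of genes above 54% was 1.02 to 1.15 in the 3 WT baseline libraries of the T/T colony, and -1.41, -1.80 and -0.11 in WT replicates 1, 2 and 3 after DSS. On the scale of all 4 groups of that colony, T/T baseline replicate 1 stood at -0.43 against 0.49 to 0.97 in the other T/T baseline libraries, and T/T replicate 3 after DSS at -1.56 against -0.27 and 0.62.

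The members differ widely in GC content, from 34.8% in Ncapg to 56.1% in Espl1, and their values are given below by GC content as well as by role, so a stretch of 120 bases from the middle of the coding region is shown for 6 members, with G and C in capitals. Cenpf and Cenpe, 2 long kinetochore genes, and Smc2, a condensin subunit, are GC-poor; Espl1 (separase), Plk1 (a mitotic kinase) and Cdc20 (an activator of the anaphase-promoting complex) are GC-rich. The coding regions hold 43.4%, 42.7% and 40.9% G and C in the former and 56.4%, 56.4% and 55.6% in the latter. The genes lie at chr1:189640606-189688086 (minus strand), chr3:135212537-135273611 (plus), chr4:52439243-52488260 (plus), chr15:102296266-102324357 (plus), chr7:122159439-122169873 (plus) and chr4:118432901-118437352 (minus) of GRCm38 in GENCODE vM21, and the sequences, all exonic and written 5′ to 3′ on the gene's strand, are those of the longest transcripts.
Cenpf: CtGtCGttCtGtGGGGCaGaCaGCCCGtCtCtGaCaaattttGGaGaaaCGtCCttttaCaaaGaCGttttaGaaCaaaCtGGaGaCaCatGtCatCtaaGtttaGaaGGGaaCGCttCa
Cenpe: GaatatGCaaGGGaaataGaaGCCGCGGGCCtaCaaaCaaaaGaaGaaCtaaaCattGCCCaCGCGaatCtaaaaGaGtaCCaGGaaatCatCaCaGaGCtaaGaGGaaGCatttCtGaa
Smc2: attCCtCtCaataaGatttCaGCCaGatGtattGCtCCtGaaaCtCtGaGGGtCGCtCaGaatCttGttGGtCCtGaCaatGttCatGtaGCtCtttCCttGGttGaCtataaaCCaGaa
Espl1: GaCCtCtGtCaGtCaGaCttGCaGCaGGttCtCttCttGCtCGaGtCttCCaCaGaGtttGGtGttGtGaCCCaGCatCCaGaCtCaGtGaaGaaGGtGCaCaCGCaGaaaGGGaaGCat
Plk1: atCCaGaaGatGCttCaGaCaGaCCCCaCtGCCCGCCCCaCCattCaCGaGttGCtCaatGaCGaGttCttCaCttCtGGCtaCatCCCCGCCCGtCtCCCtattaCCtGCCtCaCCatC
Cdc20: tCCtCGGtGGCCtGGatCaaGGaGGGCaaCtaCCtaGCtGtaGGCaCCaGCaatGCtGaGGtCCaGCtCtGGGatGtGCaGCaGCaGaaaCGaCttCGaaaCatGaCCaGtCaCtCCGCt

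In WT distal crypts of the T/T colony, 34 of 52 mitosis genes were lower after DSS than at baseline and 0 were higher (limma, adjusted p under 0.05), where 21.6% of all 13566 genes tested were lower. The members' median log2 fold change was -1.82, a 3.54-fold fall, and 51 of 52 members had a negative value, with the median of all genes at 0.00. In 34 members the 3 libraries after DSS all lay below the 3 baseline libraries, against 29.3% of all genes. Per kb of the longest transcript, mean levels in WT baseline libraries ran from 60.7 normalized counts for Kif18a to 2170 for Top2a (SD 499, n = 3). The fall was uneven: all 8 kinesins, all 6 spindle microtubule proteins, 5 of 6 chromosome structure genes and 6 of 8 centromere and kinetochore genes fell, whereas 0 of 4 chromosomal passenger genes and 0 of 4 anaphase genes did. The member set made up 0.205% to 0.401% of normalized counts at baseline and 0.0832% to 0.123% after DSS. The calls depend on single libraries in this design of 3 against 3: without baseline replicate 1, baseline replicate 2 or DSS replicate 1 they numbered 13, 0 (smallest adjusted p = 0.0534) and 15, beside 443, 0 and 409 of all genes, while the median stayed between -2.11 and -1.57 whichever library was left out.

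**Figure D1:**
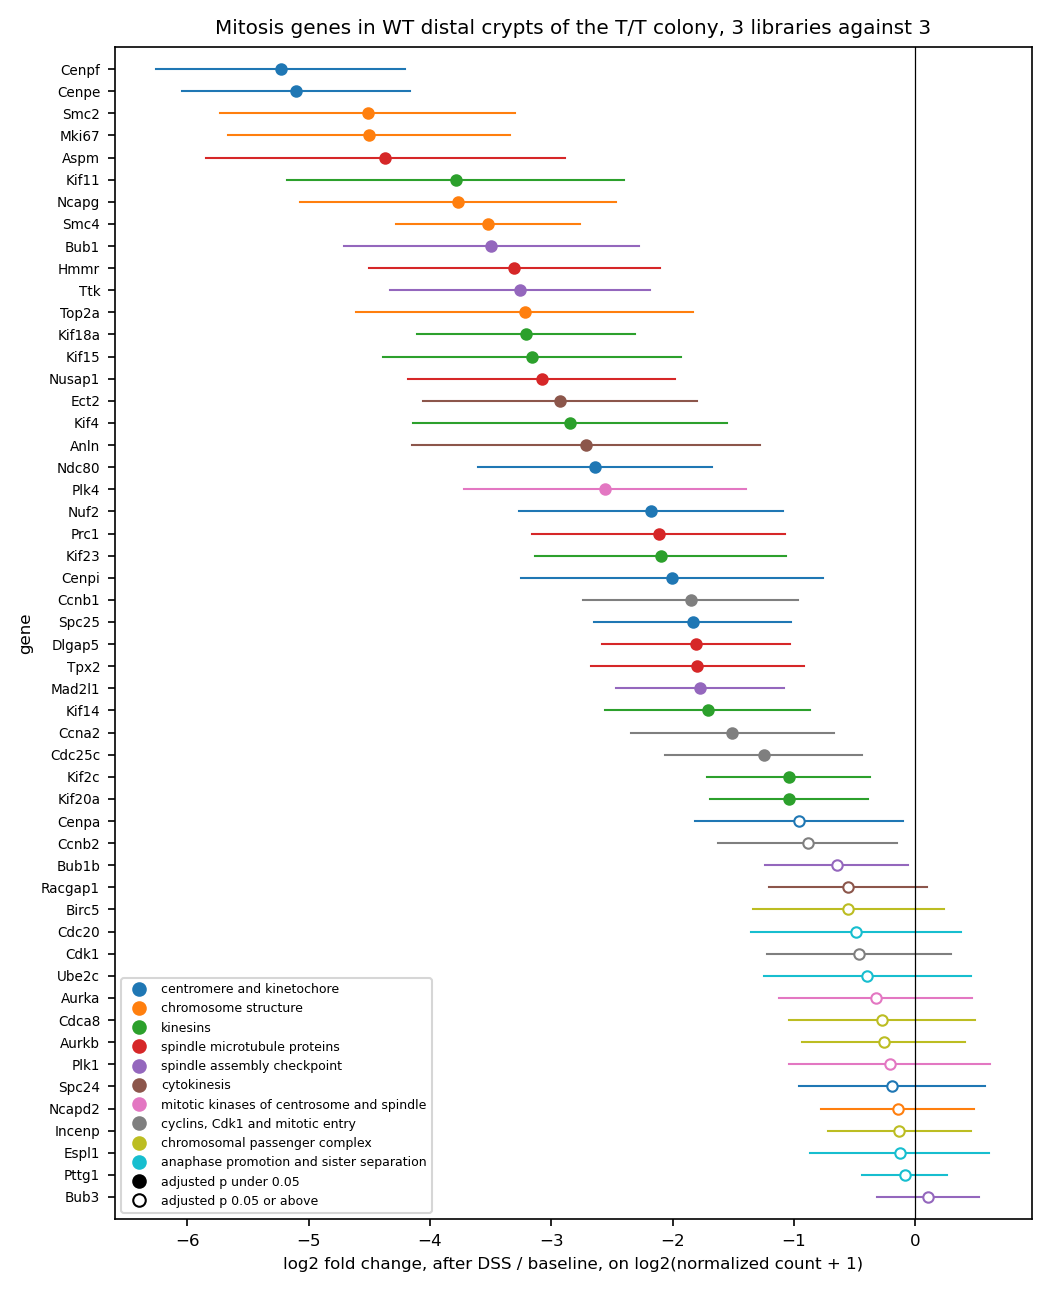
Log2 fold change (x axis, after DSS over baseline, on log2(normalized count + 1)) of the 52 mitosis genes (y axis) in WT distal crypts of the T/T colony, 3 libraries against 3; points are limma estimates with 95% confidence intervals, coloured by role, filled where the adjusted p was under 0.05. The values run from -5.23 for Cenpf to 0.10 for Bub3, and the 34 filled points lie at or below -1.04.

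Among the centromere and kinetochore genes the largest falls of the whole set were found. Cenpf, a large coiled-coil protein of the outer kinetochore, was read at 4658, 3579 and 1932 normalized counts in the 3 baseline libraries and at 72.1, 58.9 and 139 after DSS. Cenpe, the kinetochore motor that carries chromosomes to the spindle equator, was read at 3674, 3014 and 1651 and at 66.9, 54.8 and 118. In both genes every library after DSS lay far below every baseline library. The log2 changes were -5.23 (SE 0.43) and -5.11 (SE 0.39), 37.5-fold and 34.4-fold falls, each with adjusted p = 0.00693. Ndc80, the microtubule-binding subunit of the complex named after it, was read at 957, 782 and 571 at baseline and 85.7, 92 and 220.3 after DSS (log2 change -2.64, SE 0.40, adjusted p = 0.00981). Transcripts of its complex differed: Nuf2 and Spc25 fell by 2.18 and 1.84 on the log2 scale, and Spc24 stood at -0.19 (95% CI -0.96 to 0.57). These single-gene values, like those of the other roles below, are before any removal of the GC trend. Cenpa, the centromeric histone, was read at 3494, 2304 and 1475 at baseline and 1098, 1651 and 894 after DSS. Its groups overlapped, and its change did not pass the test (log2 change -0.96, SE 0.36, adjusted p = 0.0758).

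Chromosome structure genes fell in 5 of 6 cases. Mki67, which coats mitotic chromosomes and is the common proliferation marker, was read at 24710.0, 19545 and 12664 at baseline and at 571, 534 and 1721 after DSS (log2 change -4.50, SE 0.49, adjusted p = 0.00731), and Top2a, the topoisomerase that untangles sister chromatids, at 13709.7, 11708 and 8539.8 and at 677, 787 and 3181 (log2 change -3.22, SE 0.58, adjusted p = 0.013). In both, as in most members that fell, DSS replicate 3 was the highest of its group and still below all baseline libraries. Of the condensin subunits, Smc2 went from 3449, 2639 and 1895 to 69.5, 80.6 and 251 (log2 change -4.51, SE 0.51, adjusted p = 0.00794) and Ncapg from 1734, 1379 and 830.5 to 51.9, 70.3 and 207 (log2 change -3.77, SE 0.54, adjusted p = 0.00923). Smc4, the partner of Smc2 in the condensin core, fell by 3.52 on the log2 scale. Ncapd2, a regulatory subunit of the same complex, lay at 6129.6, 4812 and 3829 at baseline and 3942, 6146 and 3453 after DSS, overlapping, with a log2 change of -0.14 (95% CI -0.77 to 0.49).

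All 8 kinesins fell, by a median of 2.47 on the log2 scale. Kif11, the motor that pushes spindle poles apart, was read at 4401, 3316 and 2357 at baseline and 127, 168 and 601 after DSS (log2 change -3.79, SE 0.58, adjusted p = 0.00981), and Kif20a, a motor of the central spindle, at 3210.3, 2461 and 1692 and 906, 1392 and 1215 (log2 change -1.04, SE 0.27, adjusted p = 0.0293). Neither gene's groups overlapped, although the fall of Kif20a was the smallest of the kinesins. The 6 spindle microtubule proteins fell by 1.80 (Tpx2, which nucleates microtubules near chromosomes) to 4.37 (Aspm, a spindle pole protein). Aspm was read at 2319, 1654 and 1079 and 48, 45.5 and 206, and Prc1, which bundles microtubules of the midzone, at 3893, 2688 and 2095 and 401, 549 and 1222 (log2 change -2.11, SE 0.44, adjusted p = 0.0171). Of the cytokinesis genes, Anln, which links the contractile ring to the membrane, was read at 2594, 1971 and 1224 at baseline and 143, 215 and 707 after DSS (log2 change -2.72, SE 0.60, adjusted p = 0.0203). Ect2, the activator of RhoA at the cleavage site, fell by 2.93, whereas its partner Racgap1 stood at -0.56 (adjusted p = 0.142).

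The spindle assembly checkpoint was split. Bub1 and Ttk, the kinases that recruit and start the checkpoint, fell by 3.50 and 3.26 on the log2 scale. Mad2l1, which inhibits Cdc20 until chromosomes are attached, was read at 3208, 2292 and 1613 at baseline and 513, 727 and 796 after DSS, without overlap (log2 change -1.77, SE 0.29, adjusted p = 0.0108). Bub1b was read at 3623, 2881 and 1982 and 1567, 2138 and 1601 (log2 change -0.65, SE 0.25, adjusted p = 0.0786), and Bub3, the scaffold that brings Bub1 and Bub1b to kinetochores, at 3569, 3251 and 2845 and 3397, 4240.1 and 2848 (log2 change 0.10, SE 0.18, adjusted p = 0.65). In the latter 2 genes the groups overlapped, and Bub3 was the one member with a positive value.

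Of the 8 kinase, cyclin and mitotic entry genes 4 fell. Ccnb1, the B-type cyclin that drives entry into mitosis, was read at 4583, 3032 and 1973 at baseline and at 588 to 1193 in the 3 libraries after DSS, without overlap (log2 change -1.85, SE 0.37, adjusted p = 0.016). Its kinase Cdk1 was read at 2979, 1993 and 1457 and 1349, 2075 and 1179 (log2 change -0.46, SE 0.32, adjusted p = 0.271): DSS replicate 2 lay between the baseline values, and the other DSS libraries below them. Plk1, which acts from mitotic entry to cytokinesis, was read at 3611, 2498 and 1775 at baseline and 1877, 3325 and 1654 after DSS (log2 change -0.21, SE 0.35, adjusted p = 0.642), and Aurka, the kinase of the spindle poles, at 1864, 1265 and 949.8 and 869, 1559.8 and 839 (log2 change -0.33, SE 0.33, adjusted p = 0.45). Their groups overlapped. Plk4, which starts centriole duplication, was the one kinase of the 3 that fell (log2 change -2.56, SE 0.49, adjusted p = 0.0144). In the chromosomal passenger complex, which corrects faulty attachments, Aurkb was read at 2207, 1615 and 1209 at baseline and 1164, 1851 and 1165 after DSS (log2 change -0.26, SE 0.28, adjusted p = 0.474) and Birc5, its targeting subunit, at 2777, 1960.4 and 1388 and 1141, 1971 and 1065 (log2 change -0.55, SE 0.33, adjusted p = 0.212). Replicate 2 after DSS exceeded the lowest baseline library in all 4 passenger genes.

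The genes that end mitosis were among the least changed. Cdc20 was read at 5378, 3517 and 2562 at baseline and 2212, 4072 and 1948 after DSS (log2 change -0.49, SE 0.36, adjusted p = 0.306), and Ube2c, the ubiquitin-conjugating enzyme of the anaphase-promoting complex, at 3972, 2436 and 1786 and 1646, 2928 and 1573 (log2 change -0.40, SE 0.36, adjusted p = 0.394). Both had overlapping groups. Pttg1 (securin, the inhibitor of separase) was read at 1121, 938 and 1029 and 1023, 1036 and 847, with the narrowest interval of the set around no change (-0.44 to 0.26 on the log2 scale). Espl1 was read at 1577, 1103 and 797 and 895, 1412 and 837 (log2 change -0.13, SE 0.31, adjusted p = 0.751). A p above the threshold does not show that these genes stayed level: the interval of Cdc20 reached from -1.36 to 0.38.

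The fall did not follow transcript length alone. Over the 52 members the log2 fold change was correlated with GC content of the longest annotated transcript (r = 0.733, rho = 0.754) and with its log2 length (r = -0.603, rho = -0.516). With log2 coding length r was -0.641 and rho -0.603. These correlations are over genes of the same 6 libraries and carry no p. Among the 13514 other genes tested r was 0.672 for GC content and -0.275 for transcript length, and -0.177 for coding length in 13023 of them. GC content thus ran with the response across the transcriptome and length did so less. In 6 classes of GC content (below 40%, 40 to 44%, 44 to 48%, 48 to 52%, 52 to 56% and above 56%) the members called were 3 of 3, 18 of 18, 9 of 15, 4 of 8, 0 of 7 and 0 of 1. The members' medians in these classes were -3.77, -3.12, -1.51, -0.999, -0.21 and -0.13, and those of other genes -2.02, -1.36, -0.52, 0.10, 0.31 and 0.38: mitosis genes lay lower than other genes of like GC content in each class. The members are GC-poorer than the genes at large (median 46.1% against 49.8%) and somewhat longer (3.83 against 3.30 kb).

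By length, the members' median log2 fold change was -0.33 for the 7 genes of 1 to 2 kb, -1.85 for the 23 of 2 to 4 kb, -2.78 for the 18 of 4 to 8 kb and -4.43 for the 4 above 8 kb, against 0.17, 0.07, -0.24 and -0.81 for other genes. Single genes broke this order. Espl1, with a transcript of 6658 bases and 56.1% GC, stood at -0.13, whereas Spc25, with 1869 bases and 42.6% GC, fell by 1.84. Kif14, with 8943 bases, fell by 1.71 and Ttk, with 2871 bases, by 3.26. GC content alone accounted for 53.6% of the variance of the members' fold changes, length alone for 36.4% and both for 67.1%.

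**Figure D2:**
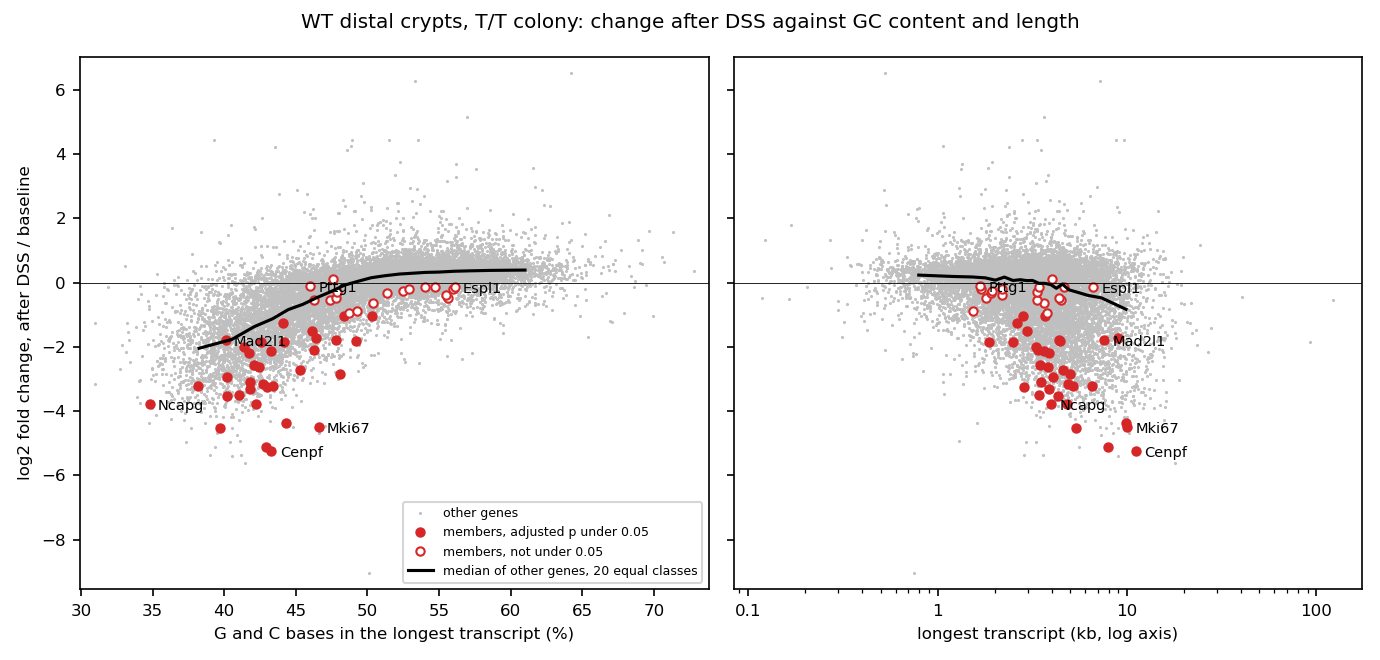
Log2 fold change after DSS in WT distal crypts of the T/T colony (y axis) against GC content of the longest transcript in percent (left) and its length in kb on a log axis (right); red points are the 52 mitosis genes, grey points other genes, and the black line the median of other genes in 20 classes of equal size. The red points rise with GC content (r = 0.733), fall with length (r = -0.603) and lie mostly below the black line in both panels.

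The trends over all genes were then removed from each library, an alternative planned for length and added for GC content after the data were seen. With the GC trend removed 27 members and 1254 of all 13566 genes were lower and the members' median was -0.98. With the length trend removed these were 35, 2904 and -1.68, and with both removed 31, 1557 and -0.995, a 1.99-fold fall in which 49 of 52 members were negative. With both removed, 5 of the 34 calls were lost and Ccnb2 and Bub1b were gained (adjusted p = 0.0446 and 0.0436). Cenpf, Mki67 and Cenpe kept log2 changes of -3.72, -3.71 and -3.66, and Smc2 one of -2.60. Mad2l1 changed sign, to 0.20: its longest transcript is GC-poor and mostly untranslated (40.1% GC, 7557 bases of which 615 code), and other genes of like GC content and length stood at -1.98. Over the members, the remaining changes still ran with length (r = -0.544) more than with GC content (r = 0.34). The role medians were then -1.92 for chromosome structure, -1.74 for spindle proteins, -1.43 for kinesins, -1.22 for cytokinesis, -0.94 for cyclins and mitotic entry, -0.83 for kinetochore, -0.80 for checkpoint, -0.61 for kinases, -0.53 for anaphase and -0.39 for passenger genes. The last 3 were further from 0 than before the removal, when they stood at -0.33, -0.26 and -0.27.

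The 3 WT libraries after DSS differed in the part of the members that was low. Relative to the baseline mean, the 36 members below 48% GC had a median log2 difference of -3.17 in replicate 1, -3.01 in replicate 2 and -1.49 in replicate 3, and the 16 members at or above 48% GC -0.69, 0.17 and -0.75. In replicates 1 and 3 all 16 of the latter were below the baseline mean, and in replicate 2, the library with the lowest level of GC-poor genes, 7 of 16 were. All 52 members were below the baseline mean in replicate 3 and 49 of 52 were below the lowest baseline library. A fit with replicate 3 as the one library after DSS, added after the data were seen and resting on the spread of the baseline libraries, called 27 members and 1983 of all genes lower (members' median -1.24), and 16 members and 702 genes (median -1.02) with GC and length trends removed as well. Among markers of other cells, T-cell markers summed to 638 to 1410 at baseline and 591 to 722 after DSS, and myeloid markers to 958 to 1371 and 677 to 1454, with 2 of 9 higher and 1 lower by the test. Fibroblast markers summed to 44 to 113 at baseline, with 1 to 2 of 7 at 0, and to 150 to 360 after DSS, with 0 to 2 at 0, without overlap and with 2 of 4 tested higher. Of the 7 epithelial markers 3 were higher, and of the 7 surface colonocyte markers 1 was lower. B and plasma cell markers summed to 442 to 901 at baseline and 236 to 414 after DSS, without overlap, although 1 of 6 tested was higher and 0 lower by the test. Crypt base stem cell markers summed to 14758 to 17312 at baseline and 17303 to 21218 after DSS. The part of the GC difference between libraries in the members' fall was not tested beyond these values.

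**Figure D3:**
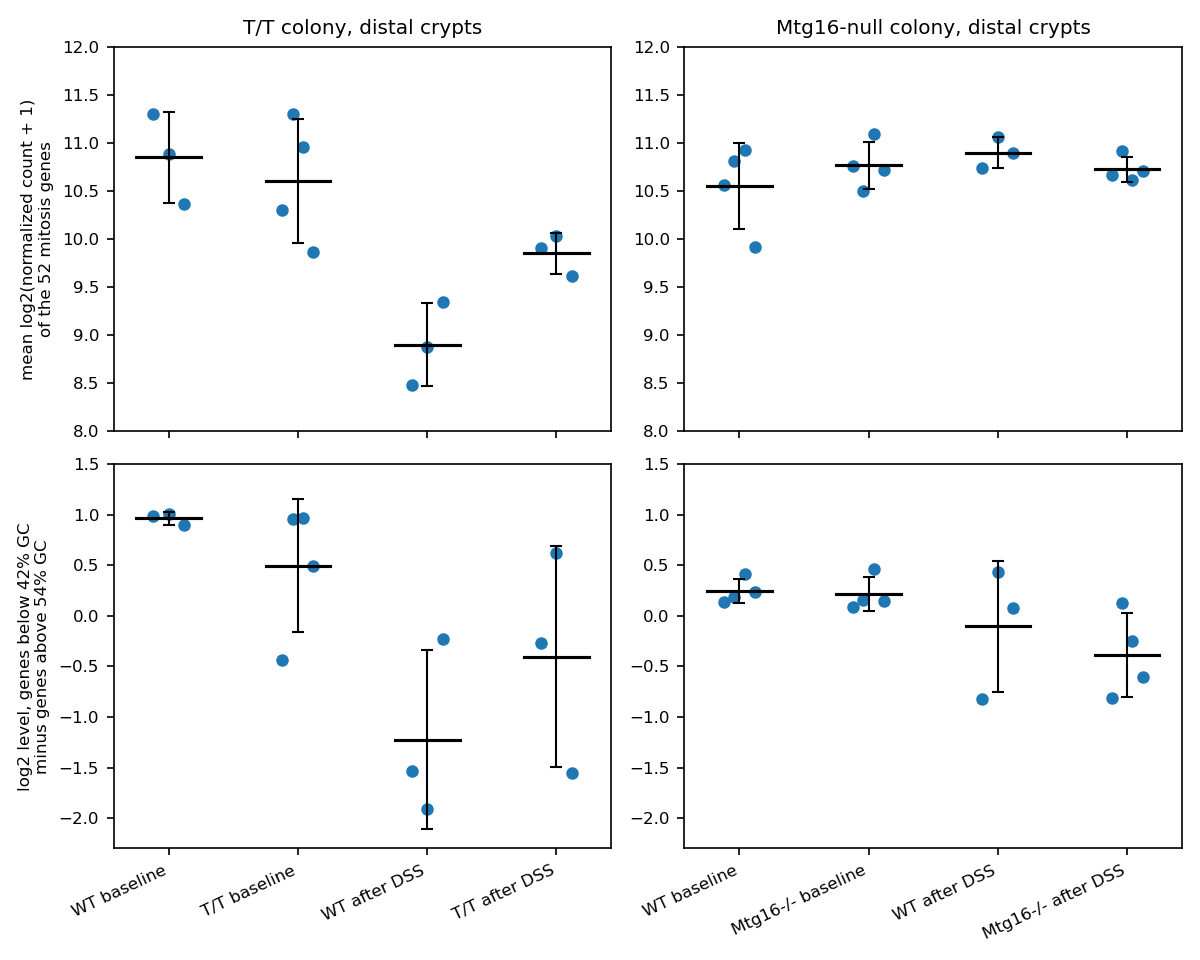
Top, mean log2 level of the 52 mitosis genes in each distal crypt library, and bottom, the median log2 level of genes below 42% GC minus that of genes above 54% GC; the T/T colony is on the left and the Mtg16-null colony on the right, points are libraries, bars group means and whiskers SD. WT libraries of the T/T colony lay at 10.36 to 11.30 at baseline and at 8.48 to 9.34 after DSS, while those of the Mtg16-null colony lay at 9.92 to 10.92 and at 10.74 to 11.07.

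In T/T crypts 0 of 52 members passed the test after DSS against baseline (limma), where 4.46% of genes were lower. The members' median was -0.76, with 41 negative. At an unadjusted p under 0.05 there were 14 members, and edgeR called 0 and DESeq2 9. These counts are not set against those over all genes, so no excess is read from them. Cenpf was read at normalized counts of 375, 5249, 4809.5 and 1189 in the 4 T/T baseline libraries and at 248, 752 and 139 in the 3 after DSS (log2 change -2.62, SE 0.86, adjusted p = 0.0698). Cenpe was read at 396, 3996, 3599 and 1102 and at 315, 884 and 201 (log2 change -2.04, SE 0.75, adjusted p = 0.102). Baseline replicates 1 and 4 were low in both genes, and replicate 1 lay within the range of the libraries after DSS. Mki67 was read at 3878, 26546, 22469 and 7766 and at 2232, 7193 and 1563 (log2 change -1.98, SE 0.71, adjusted p = 0.0954), and Cdk1 at 2634, 2718, 1955 and 1005 and at 2245, 1265 and 2777 (log2 change 0.04, SE 0.39, adjusted p = 0.947). Aspm and Top2a stood at -2.11 and -1.28, and Plk1 and Bub3 each at 0.21. The members called lower numbered 5 without T/T baseline replicate 1, 4 without DSS replicate 2 and 1 without baseline replicate 4. The counts over all genes in these fits are not given beside them. Myeloid markers summed to 936 to 1440 at baseline and 1978 to 2570 after DSS, without overlap, with 3 of 9 higher by the test, and 2 of 7 B and plasma cell markers were higher and 3 of 7 surface colonocyte markers lower. Their part in the members' values was not tested.

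The difference of the DSS effects between genotypes, T/T minus WT, was positive for 51 of 52 members with a median of 1.05. The interaction term passed the test for 0 members, and for 0.0732% of all genes, and edgeR and DESeq2 called 0 members. At an unadjusted p under 0.05 there were 13 members, a count not set against that over all genes. Its largest values were 3.05 for Cenpe (SE 1.10, adjusted p = 0.386), 2.92 for Smc2 and 2.60 for Cenpf. With GC and length trends removed the median was 0.60.

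The genotypes after DSS were also compared directly in their own table, which shares the WT libraries after DSS with the contrast above. Mitosis genes lay higher in T/T than in WT crypts, with a median log2 difference of 0.91 and 51 of 52 positive, but 0 passed the test, as did 0% of all genes. Members at an unadjusted p under 0.05 numbered 16 (1197 of all genes), edgeR called 0 and DESeq2 3. In 7 members all T/T libraries exceeded all WT libraries, against 5.66% of genes. Cenpe was read at 72.7, 59.1 and 124 in WT and at 339, 999 and 221 in T/T (log2 change 2.36, SE 0.59, adjusted p = 0.281), without overlap. Mki67 was read at 620.4, 576 and 1817 in WT and at 2405, 8129 and 1712 in T/T (log2 change 1.90, SE 0.69, adjusted p = 0.493), and Smc2 at 75.5, 86.9 and 265 and at 398, 1266 and 204 (log2 change 1.95, SE 0.77, adjusted p = 0.536). T/T replicate 2 was the highest library in each of the 3 genes, and T/T replicate 3 lay below WT replicate 3 in Mki67 and Smc2. Cenpf and Top2a differed by 1.85 and 1.45, Cdk1 by 0.45, and the smallest differences were -0.22 for Pttg1, 0.03 for Spc24 and 0.07 for Bub3. The differences ran against GC content (r = -0.681 over members), and with GC and length trends removed the median was 0.60. Myeloid markers summed to 730 to 1580 in WT and 2132 to 2904 in T/T, and B and plasma cell markers to 257 to 437 and 814 to 950, both without overlap, with 0 of 9 and 0 of 7 past the test. Their part in the difference was not tested.

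**Figure D4:**
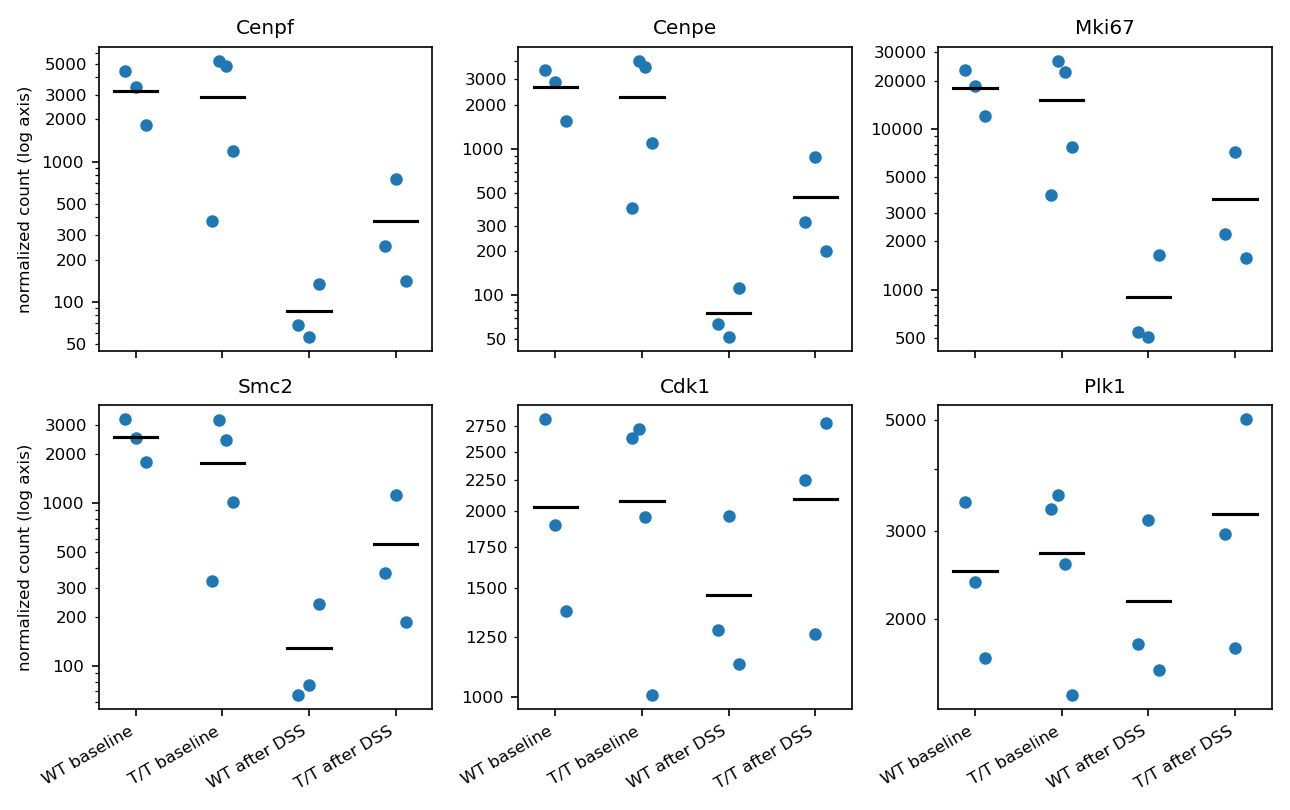
Normalized counts (y axis, log scale) of Cenpf, Cenpe, Mki67, Smc2, Cdk1 and Plk1 in the distal crypt libraries of the T/T colony at baseline and after DSS; points are libraries and bars arithmetic means. Cenpf, Cenpe, Mki67 and Smc2 fall in WT after DSS, with T/T libraries after DSS between the WT groups or overlapping them, while the groups of Cdk1 and Plk1 overlap throughout.

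In WT distal crypts of the Mtg16-null colony 2 of 52 members were higher after DSS and 0 were lower, where 3.8% of genes were higher. The share of members, 2 of 52, was near that of all genes. DESeq2 called 7, edgeR 2, and 4 were called with GC and length trends removed. These counts are not set against the shares of all genes in those fits. The median was 0.34, with 48 members positive, and 0.14, with 33 positive, without baseline replicate 4. In 15 members all libraries after DSS exceeded all baseline libraries, against 11.4% of genes. Plk1 was read at 2029, 2603, 2369 and 1295 in the 4 baseline libraries and 5176, 3209.6 and 3209.6 in the 3 after DSS (log2 change 0.91, SE 0.24, adjusted p = 0.0405), and Cdca8, the passenger subunit also named borealin, at 1524, 1765, 1557 and 1006 and 3021, 2156 and 2014 (log2 change 0.72, SE 0.19, adjusted p = 0.0458). In both genes the groups did not overlap and replicate 1 after DSS was the highest. Mki67 was read at 16444, 19317, 20394 and 9579.7 and 11001, 22976 and 17878, overlapping, with a change of 0.07. Cdk1, Top2a, Cenpe and Cenpf stood at 0.59, 0.38, -0.02 and -0.21, and Cdc20 at 0.75 (adjusted p = 0.0981). The values ran with GC content here too (r = 0.696 over members, 0.148 over other genes). The difference between the WT effects of the 2 colonies was fitted after the values were seen and was lower in the T/T colony for 37 members, against 13% of genes. The 2 calls rest on single libraries: 0 members were called without DSS replicate 1 or without baseline replicate 1, 3 or 4, and 3 members were called without baseline replicate 2. DSS replicate 1 had a GC-poor minus GC-rich level of -0.82, against 0.43 and 0.08 in the other DSS libraries and 0.14 to 0.42 at baseline. Myeloid markers summed to 660 to 1385 at baseline and 1244 to 4117 after DSS, with 3 of 9 higher by the test. Fibroblast markers summed to 31 to 214 and to 354 to 452, with 1 of 4 tested higher, and 2 of 7 surface colonocyte markers were lower. The part of these in the result was not tested.

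In Mtg16-/- crypts 3 members were higher after DSS (16.4% of genes were higher) and 1 was lower (13.4% of genes were lower). Bub3 was read at 3226, 3079, 2941 and 2764 at baseline and 5118, 3655, 3702 and 4455 after DSS (log2 change 0.48, SE 0.15, adjusted p = 0.0265). Plk1 was read at 2413, 1999, 2797 and 2353 and 4584, 3259, 3173 and 4471 (log2 change 0.68, SE 0.22, adjusted p = 0.0309), and Incenp, the scaffold of the passenger complex, at 3454, 2801, 3593 and 2452 and 4231, 4463, 4161 and 4919 (log2 change 0.54, SE 0.19, adjusted p = 0.0413). In these 3 genes all libraries after DSS lay above all baseline libraries. Cenpf was read at 2980.3, 3199, 3431 and 3199.7 at baseline and 1583, 2388, 1729 and 1515 after DSS, without overlap in the other direction (log2 change -0.85, SE 0.30, adjusted p = 0.0475). Aspm and Kif18a stood at -0.59 and -0.53 and Spc24 at 0.60; Mki67, Cenpe, Cdk1 and Top2a at -0.41, -0.38, 0.23 and -0.01. The correlation with GC content over members was 0.755. GC-poor minus GC-rich levels were 0.09 to 0.47 in the Mtg16-/- baseline libraries and -0.82, 0.13, -0.25 and -0.60 after DSS, and myeloid markers summed to 918 to 2333 and to 6490 to 19633, with 8 of 9 higher. Fibroblast markers summed to 55 to 164 and to 408 to 4006, with 3 of 4 tested higher, and 4 of 7 B and plasma cell markers and 2 of 3 smooth muscle markers tested were higher and 2 of 7 surface colonocyte markers lower. Their part in the result was not tested. Leaving out single libraries gave 0 members (without baseline replicate 4 or DSS replicate 1 or 4), 1 (baseline replicate 1 or 2), 2 (baseline or DSS replicate 3) or 5 (DSS replicate 2).

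Mtg16-/- and WT crypts of that colony were then compared after DSS, with libraries shared with the contrasts above. Mtg16-/- was lower in 48 of 52 members, with a median of -0.22, and 0 passed the test (0.629% of genes did), with 3 at an unadjusted p under 0.05 and 0 called by edgeR or DESeq2. The median ran from -0.37 without WT replicate 1 to -0.11 without WT replicate 2. A block by replicate number, although the labels state no pairing, also called 0 members. The 3 lowest values were -0.46 for Aspm, -0.45 for Cenpf and -0.43 for Nuf2, and the highest 0.13 for Bub3. Mki67 stood at -0.34 (95% CI -0.92 to 0.25). Myeloid markers summed to 1416 to 4572 in WT and 7171 to 21792 in Mtg16-/- libraries, without overlap, with 1 of 9 higher by the test. Crypt base stem cell markers had a median log2 difference of -0.24, with 5 of 7 negative. The median was 1.55 for B and plasma cell markers, with 0 of 7 negative, and 1.225 for the 5 fibroblast markers tested, with 0 negative. In these further lists 0 genes passed the test. The part of all these markers in the difference was not tested. The difference of the DSS effects, Mtg16-/- minus WT, was negative for 49 members with a median of -0.39 (-0.19 without WT baseline replicate 4); 0 members, and 0% of all genes, passed the interaction test, with 0 members at an unadjusted p under 0.05 and 0 called by edgeR or DESeq2.

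At baseline no genotype difference of a mitosis gene passed the test. In distal crypts 0 of 52 members were called between Mtg16-/- and WT (0.239% of genes were), with 0 at an unadjusted p under 0.05 and 0 called by edgeR or DESeq2. The median was 0.20 with 51 positive, from -0.11 for Pttg1 to 0.41 for Cenpi, an inner kinetochore protein. Without WT replicate 4 it was -0.02, with 25 positive. By the prefix of the library names it was 0.51 in libraries of prefix 4149 and -0.04 in those of 5094. Between T/T and WT distal crypts 0 members were called as well (0.0369% of genes were), with 0 at an unadjusted p under 0.05 and 0 by edgeR or DESeq2. Smc2 was lowest, at 2969, 2300.1 and 1639.9 in WT and 293, 2957, 2249 and 955 in T/T (log2 difference -0.94, SE 0.75). T/T replicate 1 was far below the other libraries in this gene, and the groups overlapped. These libraries are also the baseline of the DSS contrasts of that colony. The median was -0.12 (0.08 without WT replicate 1, 0.11 without T/T replicate 4 and -0.41 without WT replicate 3), and the differences ran with GC content (r = 0.803 over members), from -0.94 to 0.18 for Espl1. In proximal crypts 0 members were called in either mutant (0.0645% of genes were in Mtg16-/- and 0.232% in T/T), with 0 at an unadjusted p under 0.05. The medians were 0.04 for Mtg16-/- and -0.31 for T/T with 51 negative, and leaving out single libraries moved them from -0.26 to 0.32 and from -0.70 to 0.06. In the proximal T/T contrast surface colonocyte markers had a median of 0.27 (1 of 7 negative) and smooth muscle markers 1.88 (0 of 5 negative). T-cell markers had one of -0.33 (6 of 7 negative). In these lists 0 genes passed the test, and their part in the members' values was not tested.

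Between distal and proximal WT crypts, with the colonies together, limma called 0 of 52 members, where 42.1% of all genes were called. Members at an unadjusted p under 0.05 numbered 1, edgeR called 0 and DESeq2 1. A block by replicate number gave more calls, listed below with the dependence on processing. The median distal minus proximal difference was 0.04, from -0.26 for Cdk1 to 0.38 for Spc24, and -0.21 in the libraries of prefix 4149 alone. It ran from -0.08 to 0.18 when single libraries were left out. Without distal WT replicate 4 of the Mtg16-null colony 5 of 52 members were higher in the distal colon. The share of all genes in that fit is not given, and 42.1% were called with all libraries.

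Between WT tumors and WT baseline crypts of the distal colon the members' median log2 difference was 0.00, with 26 of 52 negative. Lower in tumors were 3 members, where 30.1% of genes were lower, and 0 were higher. Pttg1 was read at 1092, 938 and 1054 in crypts and 466.3, 426 and 460.0 in tumors (log2 change -1.19, SE 0.12, adjusted p = 4.46e-05). Spc24 was read at 1977, 1588 and 1313 and 912, 870.1 and 941 (log2 change -0.82, SE 0.15, adjusted p = 0.0015), and Ccnb2, a B-type cyclin, at 4096, 3041 and 2314 and 1843, 1723 and 2299.8 (log2 change -0.66, SE 0.20, adjusted p = 0.0201). In the 3 genes all tumors lay below all crypt libraries. Mki67 and Top2a stood at -0.27 and 0.26, and Cenpi was highest at 0.40. The crypt libraries spread more than the tumors (0.205% to 0.401% against 0.356% to 0.394% of counts in the members). Without WT baseline replicate 3, the lowest crypt library in most members, 11 members were called lower, and without replicate 1 there were 2 lower and 6 higher. Without baseline replicate 2 or tumor replicate 2 there were 2. The shares of all genes in these fits are not given, and 30.1% were lower with all libraries, so no excess is read from the counts. Tumors were taken whole. All 7 fibroblast, 5 smooth muscle, 5 endothelial and 9 myeloid markers were higher in them, and 6 of 7 epithelial markers lower. Of 7 B and plasma cell markers 5 were higher, and all 7 surface colonocyte markers were lower. Of 6 crypt base stem cell markers tested 5 were higher and 1 lower, and of 7 T-cell markers tested 2 were higher and 1 lower. The part of tissue makeup in these values was not tested. Between T/T and WT tumors 0 members passed the test, as did 0% of all genes (392 genes and 0 members at an unadjusted p under 0.05), and edgeR and DESeq2 called 0. The median was -0.15 with 46 negative, and 0.02 with 21 negative without T/T replicate 2. Cdc20, Anln and Cenpa were lowest over all 6 tumors at -0.32, -0.29 and -0.27. Mki67 was read at 22042, 18657 and 21153 in WT and 23001, 15259 and 20057 in T/T tumors, overlapping.

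**Figure D5:**
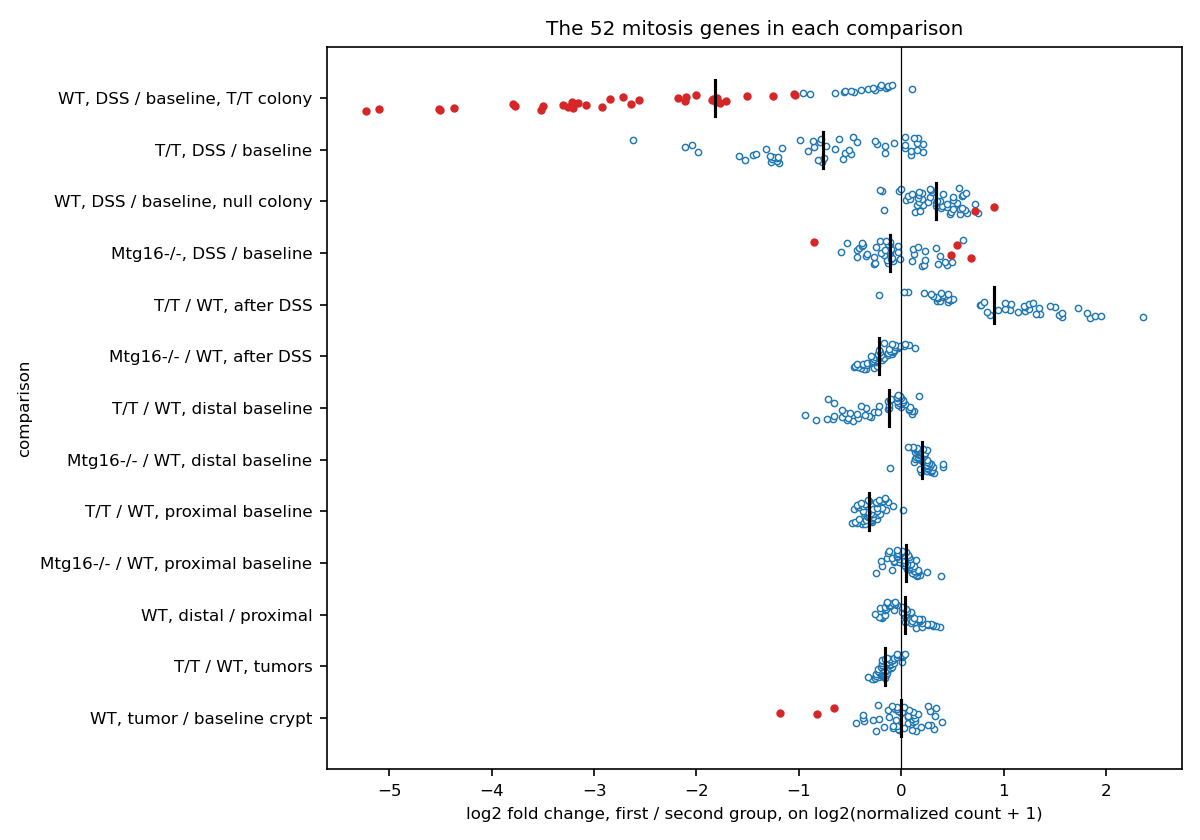
Log2 fold changes (x axis) of the 52 mitosis genes in 13 comparisons (y axis); each point is a gene, red where the adjusted p was under 0.05, and black marks are medians. The points spread widest in WT crypts after DSS in the T/T colony (median -1.82, 34 red) and sit near 0 at baseline, with medians between -0.31 and 0.20.

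Other cell cycle genes were read for context, from lists of 4 kinds. In WT crypts of the T/T colony after DSS, where 14% of all genes were higher and 21.6% lower, 32 of 54 further mitosis genes were lower and 0 higher (median -1.03), among them Kif20b, a kinesin of cytokinesis (-5.12), Knl1, the kinetochore scaffold (-4.54), and Depdc1a (-4.12). Of 23 regulators of mitotic transcription 7 were lower (median -0.08), with Lin9, a MuvB subunit, at -2.01 and Rb1, the retinoblastoma gene, at -1.98. Foxm1 and Mybl2, which activate mitosis genes, stood at -0.29 (adjusted p = 0.403) and 0.33 (adjusted p = 0.172). Of 30 S phase genes 6 were higher and 5 lower (median -0.06), led by Pola1, a DNA polymerase subunit, at -3.61. Of 14 G1 cyclins, partners and inhibitors 3 were higher and 2 lower, with Ccne2, an E-type cyclin, at -1.65 and Cdkn1a, the cyclin-dependent kinase inhibitor, at 0.17 (adjusted p = 0.332). The S phase genes had a median near 0, with values from -3.61 to 1.02, in the libraries in which the mitosis genes had one of -1.82. The lists were not tested against each other. Fold changes ran with GC content in this contrast (r = 0.672 over genes that are no members), and the lists were not compared in GC content or length.

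After DSS in Mtg16-/- crypts, where 16.4% of all genes were higher and 13.4% lower, 12 of 30 S phase genes were higher and 0 lower, with the helicase subunits Mcm5 (1.12), Mcm3 (1.09) and Mcm2 (0.92) leading, and Mybl2 was higher by 1.35 (adjusted p = 0.00262). Among the other lists there, 2 of 54 further mitosis genes were higher and 0 lower, 4 of 23 regulators higher and 2 lower, and 5 of 14 G1 genes higher and 2 lower. In WT crypts of the same colony, where 3.8% of genes were higher and 0.832% lower, the S phase genes had a median of 0.57 with 0 called, and Mybl2 stood at 0.88 (adjusted p = 0.104). In T/T crypts after DSS, where 7.09% of genes were higher and 4.46% lower, 6 of 30 S phase genes were higher and 0 lower, 0 further mitosis genes passed the test, and Mybl2 was higher by 1.13 (adjusted p = 0.036). In WT tumors against crypts 33.4% of genes were higher and 30.1% lower. Of 30 S phase genes 11 were higher there, a share near that of all genes, and 1 lower. Of 54 further mitosis genes 3 were higher and 3 lower. Cdkn2a, the Ink4a and Arf locus, had the largest G1 value, 7.11. All 15 G1 genes passed the filter here and 14 in the crypt contrasts, so a gene can pass through the tumors alone. Such a value can rest on a low crypt level plus the added 1, and tumors were taken whole.

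Promoters of the members share elements that the member list did not use. Of 27025 genes with a promoter in the RefSeq table (GRCm38.p6, 250 bases before to 50 after the start) 41.1% held a CCAAT box (CCAAT or ATTGG), the element bound by NF-Y, and 20.2% a cell cycle genes homology region (CHR, read as TTTGAA or TTCAAA, on either strand), the element bound by MuvB complexes; sites were counted separately, although the last letter of one can be the first of the other. Of the 43 members matched, 32 (74.4%) held a CCAAT box, 32 a CHR and 28 (65.1%) both, against 7.97% of all genes. Both elements were found in 15 of the 28 matched members that fell in WT crypts after DSS and in 13 of the 15 that were not called. The 200 bases before the start are shown for Cdk1, Plk1, Cdc20 and Aurka, which did not pass the test, and for Cenpe and Cenpf, which fell most, with the elements in capitals, 5′ to 3′ on the gene's strand. They lie at chr10:69352913-69353112 (minus strand) for Cdk1, chr7:122159235-122159434 (plus) for Plk1, chr4:118437344-118437543 (minus) for Cdc20, chr2:172370571-172370770 (minus) for Aurka, chr3:135212363-135212562 (plus) for Cenpe and chr1:189688087-189688286 (minus) for Cenpf. A CHR of Plk1, Cenpf and Aurka lies in the 50 bases after the start, which are not shown. Cenpe has no such letters in the window, and a match of letters is a description and not evidence of binding.
Cdk1: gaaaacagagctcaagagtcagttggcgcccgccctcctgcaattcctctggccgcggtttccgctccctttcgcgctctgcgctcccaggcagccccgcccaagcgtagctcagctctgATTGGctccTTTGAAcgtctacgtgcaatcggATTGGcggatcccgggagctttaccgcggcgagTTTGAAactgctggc
Plk1: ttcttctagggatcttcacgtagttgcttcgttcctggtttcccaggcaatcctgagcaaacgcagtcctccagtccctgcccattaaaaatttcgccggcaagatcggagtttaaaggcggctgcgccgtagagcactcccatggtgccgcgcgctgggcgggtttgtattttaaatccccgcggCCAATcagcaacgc
Cdc20: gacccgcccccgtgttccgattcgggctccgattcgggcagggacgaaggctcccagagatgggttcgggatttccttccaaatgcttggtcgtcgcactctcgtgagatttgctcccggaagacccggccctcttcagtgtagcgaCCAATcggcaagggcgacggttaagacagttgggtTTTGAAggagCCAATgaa
Aurka: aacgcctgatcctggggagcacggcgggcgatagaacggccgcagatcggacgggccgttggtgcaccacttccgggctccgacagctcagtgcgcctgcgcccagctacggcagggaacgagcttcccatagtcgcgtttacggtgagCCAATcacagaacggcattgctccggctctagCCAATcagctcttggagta
Cenpe: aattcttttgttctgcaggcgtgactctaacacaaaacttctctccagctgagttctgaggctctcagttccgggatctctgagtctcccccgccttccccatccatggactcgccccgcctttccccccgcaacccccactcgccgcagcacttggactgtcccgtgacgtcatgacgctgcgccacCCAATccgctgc
Cenpf: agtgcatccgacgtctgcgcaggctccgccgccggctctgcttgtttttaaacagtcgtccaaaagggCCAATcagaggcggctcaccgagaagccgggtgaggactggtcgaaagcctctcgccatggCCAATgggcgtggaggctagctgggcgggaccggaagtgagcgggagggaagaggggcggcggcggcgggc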

How the data were processed

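RNA from colon crypts (isolated by EDTA chelation and shaking) and whole distal tumors was sequenced by the study. Per the labels and the submitters' processing notes, reads were trimmed with fastp 0.20.0, quantified with Salmon 1.3.0 and normalized in DESeq2 1.26.0 (R 3.6.3), against mm10. The authors deposited 9 tables of size-factor-normalized counts per gene, read here as a signal. Their 59 library columns hold 42 libraries of 14 conditions. Among the tables whose whole reads were recovered, 10 libraries recur. Their recovered reads were identical for genes listed in both tables, although the normalized values differ by table.

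In 7 tables whole reads were recovered by dividing each column by its step (100% of values whole within 0.05), giving 38 libraries of 32231389 to 74661922 reads, a depth at which counting error is small beside the spread between libraries. Contrasts within a table used limma 3.58.1 (trend) on log2(normalized count + 1) over genes whose mean reached 10, with p-values adjusted by Benjamini-Hochberg and called under 0.05. Contrasts between tables (DSS against baseline within a genotype, interactions, tumor against crypt) used the recovered reads rescaled by median-of-ratios size factors. A fold change is on that scale and is understated for low genes. edgeR 4.0.16 (quasi-likelihood) and DESeq2 1.42.0 were run as alternatives on recovered reads in R 4.3.3, with another pseudocount (0.1), no filter, a replicate block, each library left out and GC or length trends removed per library by lowess. GC content and length are those of the longest GENCODE vM21 transcript, which need not be the transcript expressed. The code was tested on simulated data.

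Libraries were grouped by GEO's labels. The labels do not state that replicates are separate mice, so p-values measure the spread between these libraries, which may be in part technical. The labels state no pairing by replicate number, so like numbers were compared by the correlation of deviations from group means. It was positive between Mtg16-/- and WT libraries after DSS (r = 0.554, 0.46 and 0.317). Between WT libraries of the T/T colony before and after DSS r was -0.05, -0.12 and -0.09, and between T/T and WT after DSS -0.03, -0.71 and -0.77. In the first contrast like numbers also ranked alike in GC-poor minus GC-rich level (WT -0.549, 0.691 and 0.329, Mtg16-/- -0.55, 0.398 and -0.016). The correlations do not show that numbers mark pairs. Members, lists and tests were chosen with earlier results of these data known. Genes given per library in WT crypts after DSS were named by a rule on role, and in other contrasts those called, the 3 highest and 3 lowest, and Mki67, Top2a, Cdk1, Cenpe and Cenpf. Antisense and overlapping genes were not separated.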

Additional observations from a re-analysis of the deposited data

Results flagged for a closer look

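The DSS effect in WT crypts differed between the colonies. In a fit over the WT libraries of both colonies, chosen after the values were seen, the difference of the effects (T/T colony minus Mtg16-null colony) was negative and past the threshold for 37 of 52 members by limma, where 13% of genes were. The median difference was -2.19 on the log2 scale, 51 members were negative, edgeR called 33 and DESeq2 37 (1360 and 2067 of all genes), and 35 were called with GC and length trends removed (1114 of all genes; median -1.52). Leaving out single libraries gave 29 to 38 members. Cenpe and Cenpf differed by -5.07 (SE 0.57, adjusted p = 0.000368) and -5.01 (SE 0.65, adjusted p = 0.00103). Colony and the prefix of the library names cannot be told apart here. The part of the GC difference between libraries was not tested beyond the fit with GC and length trends removed.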

How the results depend on the processing

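In WT crypts of the T/T colony after DSS the call numbers ran from 0 to 35 when single libraries were left out (0 without baseline replicate 2, when 34 members still had an unadjusted p under 0.05 and the median was -1.80), were 34 with the other pseudocount, without the filter and by edgeR, 37 by DESeq2, 29 with a replicate block that the numbers did not pair, and 16 with DSS replicate 3 alone and GC and length trends removed. Mad2l1 reversed to 0.0109 with the GC trend removed and to 0.20 with GC and length removed. Leaving out single libraries gave 0 to 5 calls between segments (5 without distal WT replicate 4 of the Mtg16-null colony), 0 to 3 in WT and 0 to 5 in Mtg16-/- crypts after DSS in the Mtg16-null colony, 0 to 5 in T/T crypts after DSS (4 without DSS replicate 2, 1 without baseline replicate 4), 2 to 11 in tumors against crypts and 29 to 38 in the colony difference. DESeq2 called 3 members in T/T against WT after DSS, 1 between segments, 7 in WT of the Mtg16-null colony after DSS and 9 in T/T after DSS. The segment contrast gave 19 with a replicate block, although the numbers did not pair the libraries (r = 0.07, -0.13, 0.09 and 0.16), and 1 with GC and length trends removed, WT of the Mtg16-null colony 0 with the block and 4 with those trends removed, and Mtg16-/- after DSS 2 with GC removed. T/T after DSS gave 3 with length removed, 2 with coding length, 1 with GC and 3 with GC and length. The cause of these changes was not tested. Member counts without a count of all genes beside them are not read as an excess. The block in Mtg16-/- against WT after DSS, where deviations of like numbers were correlated, raised the genes called from 55 higher and 36 lower to 828 and 443. It changed no member's call.

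Removal of the GC trend (alone or with length), coding length, single-replicate fits and the colony difference were chosen after seeing the data. Each group has 2 to 4 libraries, DSS and the prefix of library names are confounded, and edgeR and DESeq2 were not run on the 2 proximal contrasts, whose reads were not recovered. Counting each single-gene value once per alternative, 3060 kept direction and call, 96 lost and 43 gained a call, 146 moved and 2 reversed.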
